A study of Mus musculus with 2 samples.

Results

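Old vascular smooth muscle cells (VSMCs) labelled as treated with siRNA against Piezo1 were compared with young VSMCs, gene by gene, to ask what remained unlike the young cells. The cells came from 1 droplet single-cell RNA library in which 4 cultures, each marked with its own DNA-tagged antibody (hashtag), were mixed before capture. A barcode was taken as a cell when it held at least 2218 gene UMIs (unique molecular identifiers, each standing for 1 captured RNA molecule) and at least 200 genes. A cell was given a tag when that hashtag, and no other, was above its cutoff of 36, 52, 61 or 41 UMIs for tags 1 to 4. This left 1529 cells with tag 4 (11.72% of 13045 cells) and 3144 cells with tag 1 (24.1%).

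All cultures were primary aortic VSMCs of C57BL/6 mice. Tag 1 stood for young cells (12 weeks) and tag 2 for old cells (58 to 78 weeks). Tag 3 stood for young cells kept in 100 nM angiotensin II (AngII) for 48 h. Tag 4 stood for old cells transfected with siPiezo1 at 20 nM for 48 h. That concentration is from the study's methods, and its results section gives a higher one. The study's methods name a non-targeting siRNA pool as control, and the old cells of its Piezo1 staining were given non-targeting siRNA. No source says whether the old cells of tag 2 received it, and no transfection is named for the young cells. Tags are tied to cultures only by numbers drawn in the study's overview scheme. The scheme never calls them hashtags, so each value carries its tag. No source tells replicate cultures apart. Each tag was therefore 1 culture, no test between tags was made, and the intervals given (exact Poisson for levels, exact binomial for ratios and shares, 95%) cover counting error only.

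VSMCs are the contractile cells of the arterial wall, and in culture they readily lower their contractile proteins and make more matrix and secreted factors. Piezo1 is a membrane channel that opens under mechanical tension and lets calcium in. Type I interferon acts through a short response element in front of many antiviral genes, and it also raises antigen presentation by MHC class I.

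Tag 4 cells held 16106402 gene UMIs with a median of 9792 per cell, and tag 1 cells held 24120561 with a median of 6816.5. The median own-hashtag count was only 67 UMIs in tag 4 against 20 in the 5307 cells without a tag, while tag 1 stood far above background (364 against 10). 206 tag 4 cells lay within 5 UMIs above the cutoff. Only 482 of the 1529 tag 4 cells held their own hashtag at 3 times the next or more, against 2649 of 3144 in tag 1. The median count of the tag 3 hashtag in tag 4 cells was 31 UMIs, the same as in cells without a tag. The assignment of cells to tag 4 was thus weaker than that to tag 1. Cells called doublets made up 15.89% of tag 4 and 21.47% of tag 1. Cells with more than 1 UMI of 8 markers of division made up 44.34% and 42.97%, a low bar that was not adjusted for depth. After each cell had been thinned to 5000 UMIs, 69.82% of tag 4 and 64.04% of tag 1 cells held fewer than 5 UMIs of the mitosis list. The median share of mitochondrial UMIs was 1.861% in tag 4 and 1.08% in tag 1. The part of these in the differences was examined only by leaving cells out, as the closing section gives. Mouse sex differed. Of the tag 4 cells 66.78% held Xist UMIs and no Y-linked UMI, against 4.898% in tag 1, and 13.8% held only Y-linked UMIs, against 54.07%. Sex and age cannot be told apart over whole tags, so values within cells of 1 sex are given where the results turn on them.

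Piezo1 (chromosome 8, 122481698 to 122551329, minus strand, GRCm38) was at 71.6 CPM (UMIs of the gene per 1000000 gene UMIs of the tag's cells) in tag 1, 89.7 in tag 2, 108 in tag 3 and 86.9 in tag 4. The level in tag 4 was 1.21 (95% interval 1.13 to 1.3) times that in tag 1 and 0.969 (0.874 to 1.07) times that in tag 2. The siRNA target was thus not lower in tag 4, at this depth, than in either comparison group. The study reports that siPiezo1 lowered Piezo1 in old cells in its sequencing, by qRT-PCR and, as protein, by immunostaining. It also reports similar calcium and force responses with a different siRNA against Piezo1. Protein and cell responses were not measured in this library. By qRT-PCR the treated old cells did not differ significantly from young ones. Only the ratio to tag 2 therefore bears on the label, and it showed no fall beyond counting error. The label was not borne out by its target, and the wording "cells labelled siPiezo1" is used for this reason. It was detected in 32.8% of tag 4 cells and 28.2% of tag 1 cells after each cell had been thinned to 5000 UMIs.

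The labelled cell type was checked with marker genes. The 10 VSMC markers summed to 1658.3 CPM in tag 4 and 2536.7 CPM in tag 1, with all of them detected, but the defining late markers were close to absent, with Myh11 (smooth muscle myosin heavy chain) at 3.6 and 5.26 CPM and Des (desmin) at 1.18 and 1.04. Fibroblast markers, many of which cultured VSMCs share, summed to 1542.4 and 2144.5 CPM. Macrophage markers reached 6.767 CPM in tag 4 and 12.31 in tag 1, with Ptprc, Adgre1, Tyrobp and C1qa at 0 in tag 4. Endothelial markers were at 18.5 and 14.55 CPM, with Tie1, Vwf and Cldn5 at 0 in tag 4, and epithelial, T cell and red cell markers were at most 8.878 CPM in tag 4.

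Of 6367 genes with a mean of at least 20 CPM over tags 1 and 4, 198 were at 2 times or more in tag 4 (3.11%) and 321 at 0.5 times or less (5.04%). The typical gene was close to equal, with a median log2 ratio of 0.04 and 90% of genes between -1.0 and 0.76, and the tail on the low side was much longer. 145 genes were at 0.25 times or less against 34 at 4 times or more, and 31 genes were at 1 part in 16 or less. Of the low genes 221 were in none of the gene lists used and of the high genes 162. The genes nearest the limits were at 0.4992 and 0.5 on the low side and at 2 and 2.003 on the high side, so the counts depend on where the limit is set. The same comparison for the old cells of tag 2, over these 6367 genes, gave 159 genes (2.5%) and 323 genes (5.07%). The filter used tags 1 and 4, so genes high mainly in tag 2 could be left out. Both comparisons use tag 1, so each is given by its own values and no overlap between them is drawn.

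**Figure D1:**
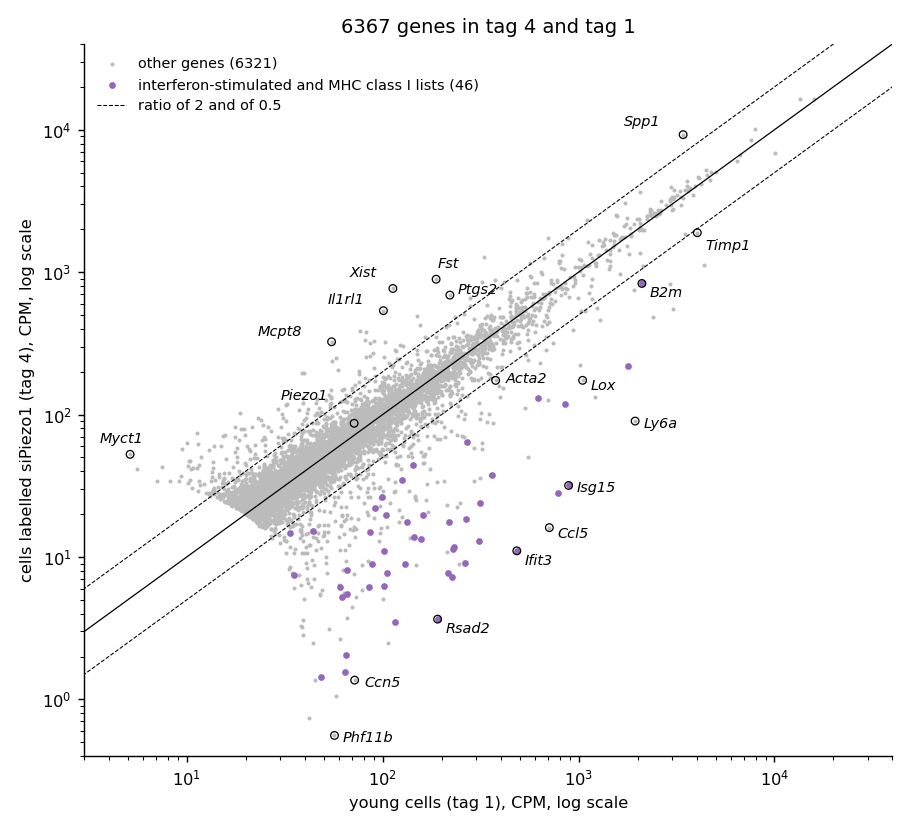
Each point is 1 of 6367 genes, with its level in young cells (tag 1, CPM, log axis) across and its level in old cells labelled siPiezo1 (tag 4, CPM, log axis) upward. Dashed lines mark ratios of 2 and 0.5, and the 46 interferon and MHC class I genes that passed the filter (purple) lie below the lower line while most other genes follow the diagonal.

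The lowest group of genes in the cells labelled siPiezo1 was the interferon response. Of 41 interferon-stimulated genes listed 36 passed the filter, and these were at 0.5 times or less, with ratios from 0.0192 to 0.4393 and a median log2 ratio of -3.66, against 0.04 over all genes. Their summed level was 8749 CPM in tag 1 and 725.7 CPM in tag 4, with 711.6 in tag 2 and 1788.9 in tag 3. Tag 4 was therefore as far from tag 1 as the old cells of tag 2 were, whose median log2 ratio to tag 1 was -4.0. The filter keeps a gene that is near 0 in tag 4 only if it is high in tag 1. Oas1a, Ifi27l2a and Dhx58, which did not pass, had ratios of 0.0464, 0.0636 and 0.0934. Sums over a tag cannot tell fewer expressing cells from less RNA per cell, which the cell-level values further on address in part.

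The regulatory sequence in front of these genes is shown because the lowest genes share letters there. In RefSeq promoters (GRCm38.p6, the first listed start of each gene, 250 bases before to 50 after it) the interferon-stimulated response element was searched on both strands as GAAA, any 2 bases, GAAA. It was present in 10 of the 17 promoters found for the 20 lowest genes (58.82%), in 16 of 29 of the interferon list (55.17%), in 45 of 243 of all genes at 0.5 times or less (18.52%) and in 5 of 144 of those at 2 times or more (3.472%). The share was 3.534% over 5093 promoters of genes that passed the filter and 3.489% over the whole table. None of the 13 promoters found for the 20 highest genes held it. Windows of the first match with 10 bases on each side are printed on the gene's strand, with all matching bases in capitals (TTTC marks the element on the opposite strand).
Phf11b: cacatttagaGAAAAAGAAActagaaacta
Ifi206: tgtctctgagGAAATCGAAAgctatgaacc
Rsad2: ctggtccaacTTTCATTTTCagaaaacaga
Ifit3: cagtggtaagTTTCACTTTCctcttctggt
Ifit3b: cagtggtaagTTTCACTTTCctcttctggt
Slfn5: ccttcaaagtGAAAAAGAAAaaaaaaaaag
Ifi205: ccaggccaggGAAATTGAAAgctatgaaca
Cxcl10: tcacgctttgGAAAGTGAAActtacctcac
Ifit1: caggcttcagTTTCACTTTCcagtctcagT
Isg15: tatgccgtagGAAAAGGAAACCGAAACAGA
Ifit3 and Ifit3b carry identical letters in this window. The 250 bases before the start of Ifit3 (chr19:34583279-34583528, plus strand), with matches starting 156 and 122 bases before the start, and of Isg15 (chr4:156200819-156201068, minus strand), with overlapping matches starting 78, 72 and 66 bases before it, are given in full because these genes are the best-known readouts of the response.
Ifit3: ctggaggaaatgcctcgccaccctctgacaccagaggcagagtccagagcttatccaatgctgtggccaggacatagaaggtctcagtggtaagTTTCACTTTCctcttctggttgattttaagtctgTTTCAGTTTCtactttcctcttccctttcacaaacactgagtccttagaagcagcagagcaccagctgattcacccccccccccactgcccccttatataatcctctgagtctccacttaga
Isg15: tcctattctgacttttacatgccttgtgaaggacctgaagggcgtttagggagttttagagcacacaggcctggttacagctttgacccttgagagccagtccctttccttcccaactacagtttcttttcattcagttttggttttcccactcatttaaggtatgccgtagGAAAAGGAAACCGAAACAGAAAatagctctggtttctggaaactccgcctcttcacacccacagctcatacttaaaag
No match was found for Sp110, Sp100, Oasl1, Irf7, Phf11d, Ifi44 and Epha3, which were also among the 20 lowest, and the promoter of Spp1, a gene on the high side, held 1 match 157 bases before the start. The letters in this window therefore did not mark every low gene, nor only low ones.

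Effector genes of the response included several of the lowest ratios. Ifit3 (chromosome 19, 34583531 to 34588731, plus strand), whose product blocks translation of viral RNA together with Ifit1, was at 484 (475 to 493) CPM in tag 1 and 11.1 (9.49 to 12.8) in tag 4, with 9.32 in tag 2 and 17.8 in tag 3. The ratio of tag 4 to tag 1 was 0.0228 (95% interval 0.0196 to 0.0265), and only the young culture without AngII was high. Near-empty droplets, which show free RNA, held Ifit3 at 135 CPM, and free RNA was estimated at 2.93% of a cell's UMIs, and with free RNA subtracted the ratio was 0.0148. Ifit1 was at 789 CPM in tag 1 and 28.1 CPM in tag 4, with 17 in tag 2 and 78.2 in tag 3 (0.0356 times). Rsad2, which encodes the antiviral enzyme viperin, was at 191 CPM in tag 1 and 3.66 CPM in tag 4, with 1.43 in tag 2 and 2.95 in tag 3, a ratio of 0.0192 (95% interval 0.0146 to 0.0248). Isg15 (chromosome 4, 156199424 to 156200818, minus strand), a ubiquitin-like modifier, was at 889.7 CPM in tag 1 and 31.8 CPM in tag 4, with 36.9 in tag 2 and 158 in tag 3. It was lower in every other culture than in the young cells without AngII, and the ratio of tag 4 to tag 1 was 0.0357 (95% interval 0.0327 to 0.039).

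Genes of nucleic-acid sensors and nuclear proteins were low as well. Zbp1, a sensor of Z-form nucleic acid, was at 215 CPM in tag 1 and 7.7 in tag 4 (0.0358 times). Phf11b, Sp110 and Ifi206, together with the matrix gene Ccn5, had the lowest ratios of all genes that passed the filter, 0.00984, 0.0176, 0.0183 and 0.019, with tag 4 at or near 1 CPM in each. For Phf11b, the lowest, the interval ran from 0.00449 to 0.0187. Ifit3 and Ifit3b, Phf11b and Phf11d, Ifi205 and Ifi206, the H2-Q genes, and Ly6a and Ly6c1 belong to families of related sequence. Whether reads of such relatives were told apart was not examined, so their single values are uncertain.

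Transcription factors of the pathway were low by unequal amounts. Irf7, the factor that amplifies interferon production, was at 265 CPM in tag 1 and 9.13 CPM in tag 4, with 12 in tag 2 and 36.6 in tag 3, a ratio of 0.0345 (95% interval 0.0291 to 0.0406). Irf9, a DNA-binding factor of the response, was at 43.9 and 15.3 CPM in tags 1 and 4. Its ratio of 0.348 (95% interval 0.302 to 0.40) lay closer to the young level than that of Irf7 or the effector genes did. Bst2, the membrane tether that holds virus on the cell, was at 1785 CPM in tag 1 and 219.7 CPM in tag 4, with 241 in tag 2 and 474 in tag 3.

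Antigen presentation by MHC class I, which interferon induces, was low as well. Of 16 genes listed 10 passed the filter, and these were at 0.5 times or less (median log2 ratio -2.25, ratios 0.04996 to 0.3956), and their summed level was 4603.9 CPM in tag 1 and 1247.4 CPM in tag 4. H2-K1, a classical heavy chain, was at 854 CPM in tag 1 and 119.6 CPM in tag 4, with 101 in tag 2 and 195 in tag 3. B2m, the invariant light chain, was at 2106 CPM in tag 1 and 833 CPM in tag 4, with 796 in tag 2 and 1150.0 in tag 3. The heavy chain stood at 0.14 (95% interval 0.134 to 0.147) times and the light chain at 0.396 (95% interval 0.388 to 0.403) times the young level, so both parts of the molecule were low, by unequal amounts. Psmb8, an immunoproteasome subunit that cuts the peptides, was at 227 and 11.4 CPM (0.050 times). These 36 and 10 genes made up 46 of the 321 genes at 0.5 times or less. The lists do not hold every interferon-responsive gene, since Ccl5 and Ly6a, also low, are in neither. Among low genes in neither list 26 of 204 promoters held the interferon-stimulated response element (12.75%). The share was 3.534% over all promoters of genes that passed the filter.

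**Figure D2:**
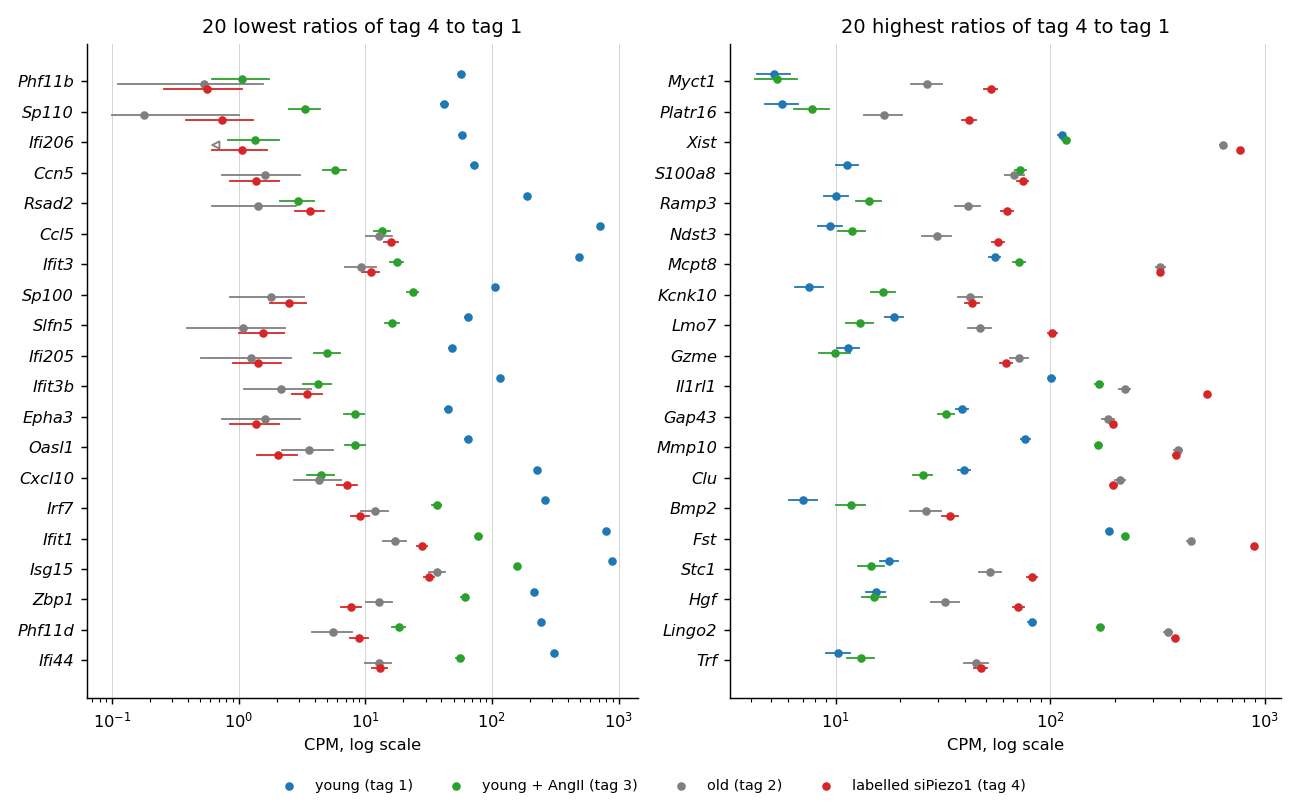
Levels in CPM (log axis) with exact 95% Poisson intervals of the 20 genes with the lowest and the 20 with the highest ratio of tag 4 to tag 1, with 1 symbol per culture for all 4 tags. In the low panel tag 4 and tag 2 lie together far below tag 1, as for Ifit3 at 11.1, 9.32 and 484 CPM, and the open triangle is the upper limit for Ifi206 in tag 2, where no UMI was seen.

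Chemokines were split. Of 14 that passed the filter, 6 were at 0.5 times or less (42.86%, against 5.04% of all genes) and 2 at 2 times or more (14.29%, against 3.11%). The median log2 ratio was -0.73. Ccl5, which draws T cells and is itself interferon-responsive, was at 709 CPM in tag 1 and 16.1 CPM in tag 4, with 12.9 in tag 2 and 13.6 in tag 3, a ratio of 0.0227 (95% interval 0.020 to 0.0256). Cxcl10, the interferon-induced chemokine, was at 227 and 7.2 CPM in tags 1 and 4. Cxcl5, a neutrophil attractant, was at 1219 CPM in tag 1 and 132 CPM in tag 4, with 97.2 in tag 2 and 1049.6 in tag 3, so that it stayed near the young level in the AngII culture and was low in both old cultures. Csf1, which sustains macrophages, was at 685 and 284 CPM (0.414 (95% interval 0.401 to 0.428) times). Ccl2, the main monocyte chemokine of these cells, was nearly equal at 3614 and 3709.6 CPM (1.03 times). Csf3, the granulocyte growth factor, lay on the other side, at 13 CPM in tag 1, 56.7 in tag 4, 55.4 in tag 2 and 8.5 in tag 3, a ratio of 4.37 (95% interval 3.84 to 4.98).

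Genes of the elastic fibre, in the extracellular matrix, were a second group unlike young. Of 13 genes of elastic fibres and their crosslinking that passed the filter, 7 were at 0.5 times or less (53.85%, against 5.04% of all genes). None was at 2 times or more, and the median log2 ratio was -1.03. The summed level was 4077.2 CPM in tag 1, 1810.8 in tag 4 and 4238.1 in tag 3. Lox (chromosome 18, 52516067 to 52529867, minus strand), lysyl oxidase, which crosslinks elastin and collagen, was at 1049 CPM in tag 1 and 174 CPM in tag 4, with 209.6 in tag 2 and 1212 in tag 3. Its ratio of tag 4 to tag 1 was 0.166 (95% interval 0.16 to 0.172), and both young cultures stood well above both old ones. Mfap5, a microfibril protein, was at 530.3 CPM in tag 1 and 111 CPM in tag 4, with 132 in tag 2 and 640.0 in tag 3, in the same order. Fbn1, the core of the microfibril, was at 316 CPM in tag 1 and 92.5 CPM in tag 4, with 99.2 in tag 2 and 162 in tag 3 (0.293 (95% interval 0.277 to 0.31) times). Ltbp1, which ties latent TGF-beta to microfibrils, had the highest ratio of the list, at 187 and 348 CPM (1.86 times).

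Collagens were lower by smaller amounts. Of 13 that passed, 6 were at 0.5 times or less (46.15%, against 5.04% of all genes). The median log2 ratio was -0.92, and the sum was 3842.2 CPM in tag 1 and 1922.5 CPM in tag 4. Col3a1, the fibrillar collagen of distensible vessels, was at 341 CPM in tag 1 and 89 CPM in tag 4, with 54.3 in tag 2 and 76.3 in tag 3, a ratio of 0.261 (95% interval 0.246 to 0.276). Only the young culture without AngII was high for it. Col1a1 and Col1a2, the chains of the main fibrillar collagen, were at 0.486 (95% interval 0.469 to 0.503) and 0.493 (95% interval 0.481 to 0.505) times the young level, just inside the limit. Col11a1, a fibril nucleator, was at 239.5 and 72 CPM with 218 in tag 3. Proteoglycans and matricellular proteins were not low as a list, with a median log2 ratio of 0.04 over the 14 genes that passed and summed levels of 7734 CPM in tag 1 and 8482.6 in tag 4. In this list 3 genes were at 0.5 times or less (21.43%, against 5.04% of all genes) and 1 at 2 times or more (7.143%, against 3.11%). Sparc, a collagen chaperone, was at 1925 CPM in tag 1 and 754 CPM in tag 4, with 817 in tag 2 and 1322 in tag 3 (0.392 times), and Ccn2, a matrix-inducing secreted factor and a target of YAP and TGF-beta, was at 163 CPM in tag 1 and 45.7 CPM in tag 4, with 73.7 in tag 2 and 365 in tag 3. AngII-treated young cells were thus the highest for Ccn2, and the cells labelled siPiezo1 the lowest. Ccn5, a growth-inhibitory relative of Ccn2, was at 72 and 1.37 CPM. Tnc, tenascin C of injured vessels, was on the high side, at 374 and 881 CPM (2.36 (95% interval 2.3 to 2.42) times).

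Enzymes that cut matrix and their inhibitors went both ways. Of 13 genes 3 were at 2 times or more (23.08%, against 3.11% of all genes) and 5 at 0.5 times or less (38.46%, against 5.04%). Mmp10, stromelysin 2, was at 76.4 CPM in tag 1 and 383 CPM in tag 4, with 394 in tag 2 and 167 in tag 3 (5.02 (95% interval 4.76 to 5.29) times), and Mmp13, collagenase 3, was at 2.77 (95% interval 2.46 to 3.12) times the young level. Adamts5, the aggrecanase and versicanase, was at 354 CPM in tag 1 and 37.9 CPM in tag 4, with 32.5 in tag 2 and 90.3 in tag 3, a ratio of 0.107 (95% interval 0.0986 to 0.116). Timp1 and Timp3, inhibitors of these proteases, were at 0.469 and 0.399 times. Mmp10 and Mmp13 were thus on the high side and Timp1 and Timp3 on the low side. Mmp23, a membrane-bound member, was at 0.354 times and Adam12 at 0.343 times. Not every member is given here, so these genes do not describe the proteases or inhibitors as a class. In cells with only Xist UMIs Mmp10 was at 1.47 times. Serpine2, protease nexin 1, was at 88.8 and 273 CPM (3.07 times).

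Markers used for modulated smooth muscle cells, that is cells that have left the contractile state, summed to 8086.8 CPM in tag 1 and 3944 CPM in tag 4. Of 11 that passed the filter 3 were at 0.5 times or less (27.27%, against 5.04% of all genes) and none at 2 times or more. Timp1 and Ly6a together made up most of the gap. Ly6a, the surface protein Sca-1, was at 1944 CPM in tag 1 and 90 CPM in tag 4, with 56.5 in tag 2 and 411 in tag 3, a ratio of 0.0463 (95% interval 0.0439 to 0.0488). Ly6a is also interferon-inducible. Timp1, also on this list, was at 4037 and 1893 CPM, and S100a4 at 595 and 309 (0.52 times). Dcn, decorin, was higher at 1.51 times.

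The contractile list of 20 genes held 7 that passed the filter, of which 1 was at 0.5 times or less (14.29%, against 5.04% of all genes). A single gene is too few to read as a trait of the list. Acta2, smooth muscle alpha-actin, was at 378 CPM in tag 1 and 174 CPM in tag 4, with 568 in tag 2 and 294 in tag 3, a ratio of 0.46 (95% interval 0.441 to 0.48). The other members that passed lay between 0.594 (Cald1, caldesmon) and 1.46 times (Tpm1, tropomyosin 1). Lmod1, which seeds actin filaments, and Ppp1r14a, the inhibitor of myosin phosphatase, were under the filter, at 8.07 and 4.53 CPM in tag 4 against 18.2 and 15.1 in tag 1. Smtn, smoothelin, was at 21.7 against 11.6. For the contractile list tags 4 and 2 stood on opposite sides of tag 1, with median log2 ratios of -0.31 and 0.59. Of the 19 non-muscle actin, actinin and tropomyosin genes, all of which passed, Myh10 (non-muscle myosin IIB, 2.16 times) alone was past the limit. That 5.263% of the list is near the 3.11% over all genes, and the median log2 ratio was 0.05.

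On the high side no interferon or MHC class I gene appeared, and 36 of the 198 genes were in any of the lists. Spp1 (chromosome 5, 104435118 to 104441050, plus strand), osteopontin, a secreted phosphoprotein of modulated VSMCs, was at 3418 CPM in tag 1 and 9233 CPM in tag 4, with 8229 in tag 2 and 5782 in tag 3. The ratio of tag 4 to tag 1 was 2.7 (95% interval 2.68 to 2.73), and the young culture without AngII was the lowest of the 4. In the list of Spp1 with integrins and Cd44, 6 of 18 genes passed the filter, and Spp1 alone was past the limit. This single gene is 16.67% of the 6, against 3.11% of all genes, and is too few to read as a trait of the list. The receptor Cd44 was at 1.29 (95% interval 1.25 to 1.34) times and the integrin Itga5 at 0.568 times. Receptors under the filter were not assessed.

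Prostaglandin synthesis stood out as a short pathway. Of 7 genes that passed the filter 3 were at 2 times or more (42.86%, against 3.11% of all genes) and none at 0.5 times or less. The median log2 ratio was 0.75. The list summed to 998.3 CPM in tag 1, 2032 CPM in tag 4, 2146.7 CPM in tag 2 and 1725.8 CPM in tag 3. Pla2g4a, the phospholipase that frees arachidonic acid, was at 75.5 CPM in tag 1 and 194 CPM in tag 4, with 187 in tag 2 and 109 in tag 3 (2.56 (95% interval 2.42 to 2.72) times). Ptges, which makes prostaglandin E2, was at 89.8 CPM in tag 1 and 328 CPM in tag 4, with 318 in tag 2 and 127 in tag 3 (3.65 (95% interval 3.47 to 3.83) times). The inducible cyclooxygenase Ptgs2 lay between them in the pathway at 3.13 times, and the constitutive form Ptgs1 at 1.68 times. Ptgs2 was at 220 CPM in tag 1, 690 in tag 4, 797 in tag 2 and 680 in tag 3. It was thus also high in the young cells treated with AngII. The 3 past the limit are consecutive steps from membrane lipid to prostaglandin E2, and they were about equally high in the old cells of tag 2.

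Axon guidance molecules, which also steer vascular cells, had a median log2 ratio of 0.67. Of 17 genes 6 were at 2 times or more (35.29%, against 3.11% of all genes) and 2 at 0.5 times or less (11.76%, against 5.04%). The semaphorins Sema3a and Sema3c, secreted guidance proteins, were at 4.29 (95% interval 4.04 to 4.56) and 3.68 (95% interval 3.5 to 3.87) times the young level. Sema3a was at 58 CPM in tag 1 and 249 CPM in tag 4, with 229 in tag 2 and 86.8 in tag 3. Robo1, the receptor for Slit ligands, was at 2.48 times and Slit2, its ligand, at 1.91 times. Epha3, an ephrin receptor, and Ntn4, a basement-membrane netrin, lay far to the other side, at 45.2 and 1.37 CPM and at 38.1 and 3.29 CPM in tags 1 and 4. Members of the list thus lay far from young on both sides.

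Growth factor and TGF-beta family genes held both directions too. Of 22 growth factor genes 4 were at 2 times or more (18.18%, against 3.11% of all genes) and 5 at 0.5 times or less (22.73%, against 5.04%). Hgf, the ligand of Met, was at 15.3 CPM in tag 1 and 71 CPM in tag 4, with 32.3 in tag 2 and 15.1 in tag 3 (4.63 (95% interval 4.11 to 5.22) times), and Vegfd at 248 CPM in tag 1 and 24 CPM in tag 4, with 17 in tag 2 and 29.6 in tag 3 (0.097 (95% interval 0.0873 to 0.107) times). Igfbp3 and Igfbp6, carriers of insulin-like growth factors, were at 0.228 and 0.217 times, while Igfbp4 was at 2.73 times. In the TGF-beta list 3 of 18 genes that passed were at 2 times or more (16.67%, against 3.11% of all genes). At 0.5 times or less there was 1 (5.556%, against 5.04%). The 3 on the high side were 2 antagonists and a ligand. Fst (follistatin, which traps activin) was at 188 CPM in tag 1 and 892 CPM in tag 4, with 451 in tag 2 and 223 in tag 3, a ratio of 4.76 (95% interval 4.6 to 4.92), Grem1 (gremlin, which traps BMPs) was at 2.35 (95% interval 2.28 to 2.42) times, and the ligand Bmp2 was at 4.82 (95% interval 4.05 to 5.76) times. Pmepa1, a TGF-beta target that damps the pathway, was at 412 CPM in tag 1 and 154 CPM in tag 4, with 231 in tag 2 and 743 in tag 3 (0.375 times).

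The single highest ratio was that of Myct1, a nuclear protein gene, at 5.14 CPM in tag 1 and 52.6 CPM in tag 4, with 26.5 in tag 2 and 5.29 in tag 3, 10.2 (95% interval 8.46 to 12.4) times the young level. S100a8, a subunit of calprotectin, was at 11.3 CPM in tag 1 and 74.1 CPM in tag 4, with 68 in tag 2 and 72.4 in tag 3, and here only the young culture without AngII was low. Mcpt8 and Gzme, serine protease genes of the same cluster on chromosome 14 with related sequences, were at 5.91 and 5.43 times, Mcpt8 at 54.9 CPM in tag 1 and 325 CPM in tag 4, with 326 in tag 2 and 71.3 in tag 3. Both old cultures were high for Mcpt8 and both young ones low. Il1rl1, the receptor of interleukin 33, was at 5.32 times and its co-receptor Il1rap at 1.46 times. The paternally expressed imprinted genes Peg3 and Peg10 were at 4.29 (95% interval 4.03 to 4.57) and 4.31 (95% interval 3.72 to 5.0) times, while the other 7 imprinted genes that passed lay within the limits. Beyond the lists, Mecom, a zinc-finger transcription factor gene, was at 81.5 CPM in tag 1 and 332 CPM in tag 4, with 222 in tag 2 and 70.3 in tag 3, and Odc1, the first enzyme of polyamine synthesis, was at 329 CPM in tag 1 and 1282 CPM in tag 4, with 1265 in tag 2 and 572 in tag 3, with ratios of 4.07 (95% interval 3.87 to 4.29) and 3.9 (95% interval 3.79 to 4.0).

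**Figure D3:**
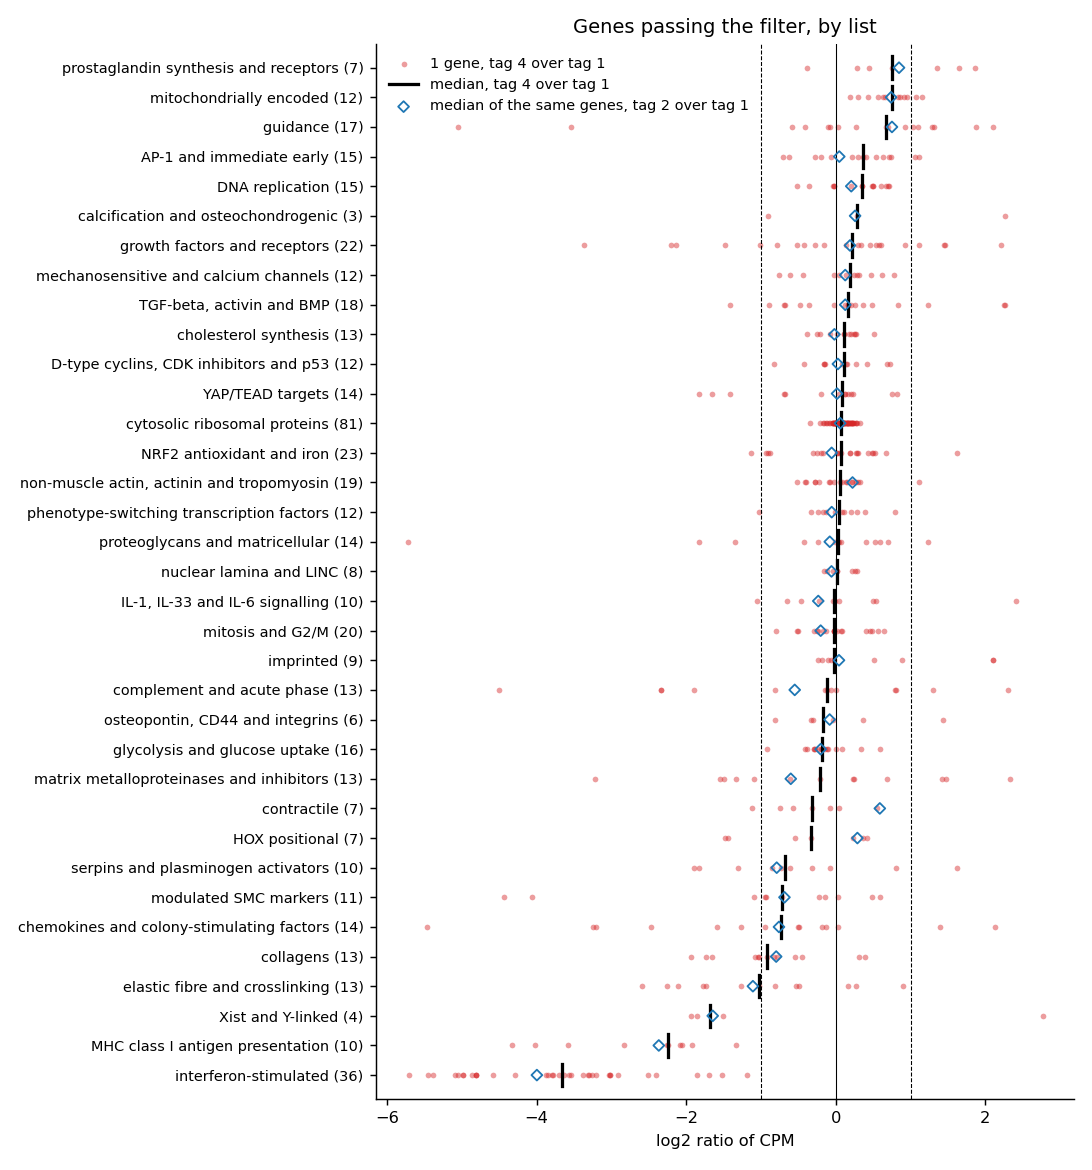
For each of 35 gene lists, 1 dot per gene that passed the filter gives its log2 ratio of tag 4 to tag 1, the black bar the median of the list, and the blue diamond the list's median in the comparison of tag 2 with tag 1. The interferon list (median -3.66) and the MHC class I list (-2.25) lie apart on the low side with the Xist and Y-linked genes (-1.68), followed by elastic fibre genes (-1.03) and collagens (-0.92), while prostaglandin (0.75), mitochondrially encoded (0.75) and guidance genes (0.67) have the highest medians.

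Several lists held no gene past the limit, which for the shorter ones is near the share over all genes (3.11% at 2 times or more and 5.04% at 0.5 times or less). None of the 12 cyclin, CDK inhibitor and p53 genes, 15 DNA replication genes, 20 mitosis genes, 16 glycolysis genes, 13 cholesterol synthesis genes, 8 nuclear lamina genes, 81 ribosomal protein genes or 12 mechanosensitive and calcium channel genes was past the limit in either direction. The cell cycle inhibitors Cdkn1a (p21) and Cdkn2a (p16 and p19) were at 726 and 651 CPM and at 271 and 362 CPM in tags 1 and 4. Piezo2, the paralogue of the siRNA target, was at 30 CPM in tag 1 and 17.8 CPM in tag 4, with 23.1 in tag 2 and 42.7 in tag 3 (0.592 (95% interval 0.514 to 0.679) times). Of 15 AP-1 and immediate early genes 2 were at 2 times or more (13.33%, against 3.11% of all genes), Nr4a1 (2.17 times) and Ier3 (2.09 times). The median log2 ratio was 0.37. The AP-1 letters TGANTCA were searched on both strands. They were in 9.028% of promoters of genes at 2 times or more and 13.17% of those at 0.5 times or less. The share was 4.673% over all that passed the filter and 7.933% over all 27025 promoters. The CArG box, bound by SRF, was in 0.6944%, 2.469%, 1.433% and 1.573% of these groups in turn.

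Whether a difference lay in many cells or a few was looked at in cells thinned to 5000 UMIs, which left 1415 tag 4 cells, 2397 tag 1 cells and 476 tag 2 cells and set aside 114, 747 and 21 shallower ones. The median cell held 45 interferon-list UMIs in tag 1 and 3 in tag 4, and 93.07% of tag 4 cells were below the 5th percentile of tag 1 (10 UMIs). Only 0.07067% of tag 4 cells were above the tag 1 median. The low level was therefore spread over nearly all cells labelled siPiezo1, as in tag 2, whose median was also 3. Ifit3 was seen in 77% of tag 1 cells and 4.17% of tag 4 cells, or 84.1% and 6.47% before thinning. MHC class I genes had medians of 23 and 6 UMIs per cell, with 47.35% of tag 4 cells below the 5th percentile of tag 1, and elastic fibre genes had medians of 20 and 8 UMIs with 45.87% below it. Collagens were at 18 and 8 UMIs, and there 16.4% of tag 4 cells were below it.

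On the high side, Spp1 made up most of the osteopontin and receptor list (3418 of 4864.7 CPM in tag 1 and 9233 of 10584.3 in tag 4). That list had medians of 17 UMIs per cell in tag 1 and 48 in tag 4. Of tag 4 cells 93.85% were above the tag 1 median. For the prostaglandin list, with medians of 4 and 9, the share was 90.81%, and for guidance genes, with 7 and 12, it was 76.25%.

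**Figure D4:**
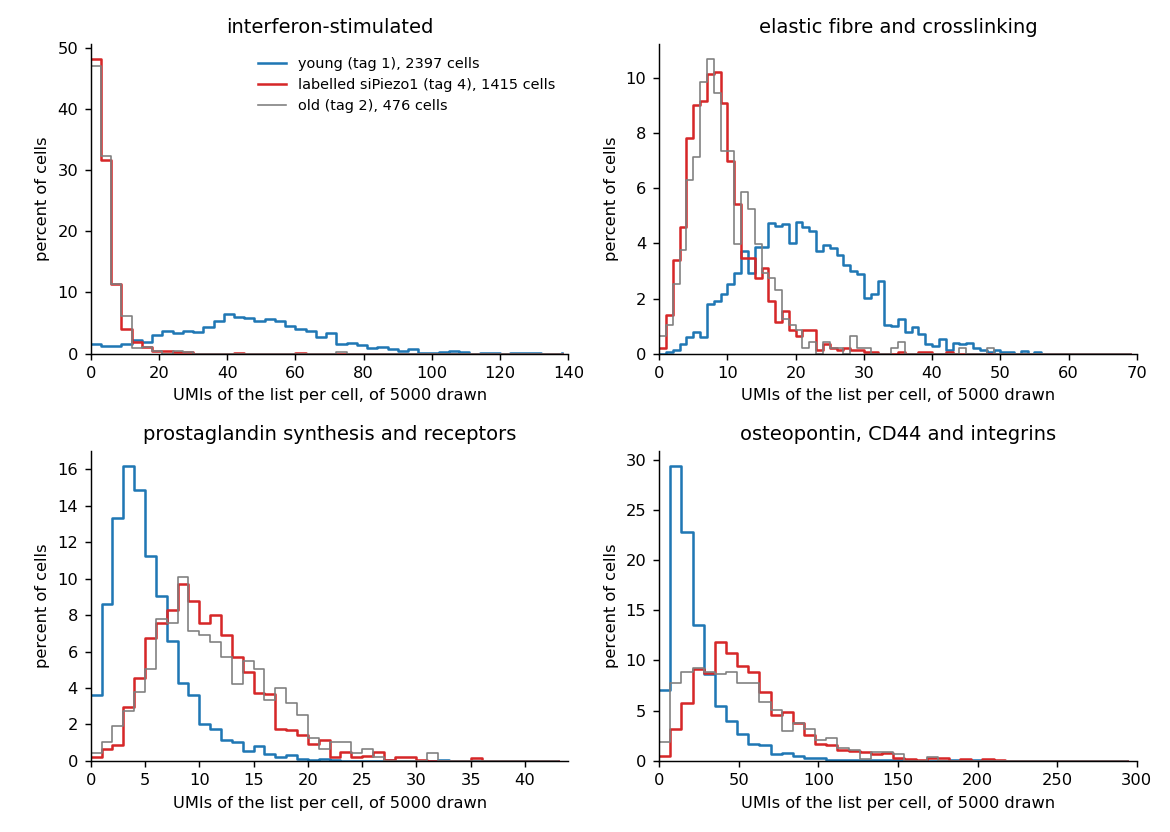
Percent of cells of each tag (upright axis) by the number of UMIs of a gene list in the cell, of 5000 drawn, for tag 1 (2397 cells), tag 4 (1415 cells) and tag 2 (476 cells), in 4 panels whose bin widths differ. The interferon panel shows tags 4 and 2 piled up near a median of 3 UMIs and tag 1 spread around 45. The osteopontin panel, whose UMIs are mostly those of Spp1, shows the reverse order (48 and 17 for tags 4 and 1).

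The comparison was repeated within cells of 1 sex. Among cells with Y-linked UMIs and no Xist UMI (211 in tag 4, 1700 in tag 1), the same 36 interferon genes and 10 MHC class I genes were still at 0.5 times or less, with median log2 ratios of -3.79 and -2.59. Ifit3 was at 534 CPM in tag 1 and 9.86 in tag 4 of these cells, a ratio of 0.0185 (0.0117 to 0.0277), and Ccl5 at 763 and 4.72. Lox was at a ratio of 0.222 (0.204 to 0.241), Spp1 at 3.81 (3.75 to 3.87), Mcpt8 at 9.61 (8.52 to 10.9) and Acta2 at 0.386 (0.343 to 0.432). The difference from young was thus as large or larger in these Y-linked cells for these genes, Lox aside. Named genes went both ways, however. Fst (3.21 times), Hgf (3.08), Trf (1.6) and Mfap5 (0.31) lay nearer the young level in these cells than over whole tags. Clu (9.4) and Peg3 (7.28) lay further from it. Of the 198 genes at 2 times or more 164 were still past the limit there, and of the 321 at 0.5 times or less 292. Elastic fibre genes at 0.5 times or less numbered 5 of 13 in place of 7 (median log2 ratio -0.75) and collagens 4 of 13 in place of 6 (-0.85). Of 20 mitosis genes 9 were at 0.5 times or less in these cells (median log2 ratio -0.97). With the level filter applied within these cells, 369 genes in all were at 0.5 times or less. No share over all genes was computed there, so the list counts have no background beside them. Il1rl1 was at only 2.24 (1.99 to 2.52) times. The 211 tag 4 cells had a median of 63 own-hashtag UMIs, against a cutoff of 41. Whether they belong to the culture labelled siPiezo1 was not tested.

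Among cells with Xist UMIs and no Y-linked UMI (1021 in tag 4, 154 in tag 1) the differences were smaller. 32 of 36 interferon genes and 7 of 10 MHC class I genes were at 0.5 times or less (median log2 ratios -2.32 and -1.32), together with 180 of the 321 low genes, but 19 of the 198 high genes remained past the limit. Of the elastic fibre genes 3 of 13 and of the collagens 1 of 13 were at 0.5 times or less (median log2 ratios -0.49 and -0.50). No share over all genes was computed within the Xist cells either, so these list counts have no background. Ifit3 was at 166 CPM in the tag 1 cells and 9.62 in the tag 4 cells, and Spp1 at 7400.1 and 8861 (1.2 (1.17 to 1.22) times). For Ifit3 the gap between Y-linked and Xist cells lay in tag 1. Its level in tag 4 was alike in cells of either kind (9.86 and 9.62 CPM), while in tag 1 it was 534 and 166. Other genes differed within tag 4 as well, such as Il1rl1 at 163 CPM in its Y-linked cells and 652 in its Xist cells. The 154 Xist cells of tag 1 had a median of 225 own-hashtag UMIs, against 399 in the Y-linked cells of that tag. These Xist cells of tag 1 lay nearer to tag 4 than its Y-linked cells did for several genes high in tag 4. Peg3 was at 167 CPM in them and 40.3 in the Y-linked cells, Mcpt8 at 184 and 32.2, Clu at 122 and 20.1, and Spp1 at 7400 and 2835. Acta2 went the other way, at 509 and 348. Whether these Xist cells belong to the young culture was not tested. None of the 7 prostaglandin genes and none of the 17 guidance genes was at 2 times or more among them, so the direction of most genes held (193 of 198 and 317 of 321 on the same side of 1) but the size of the high group did not.

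**Figure D5:**
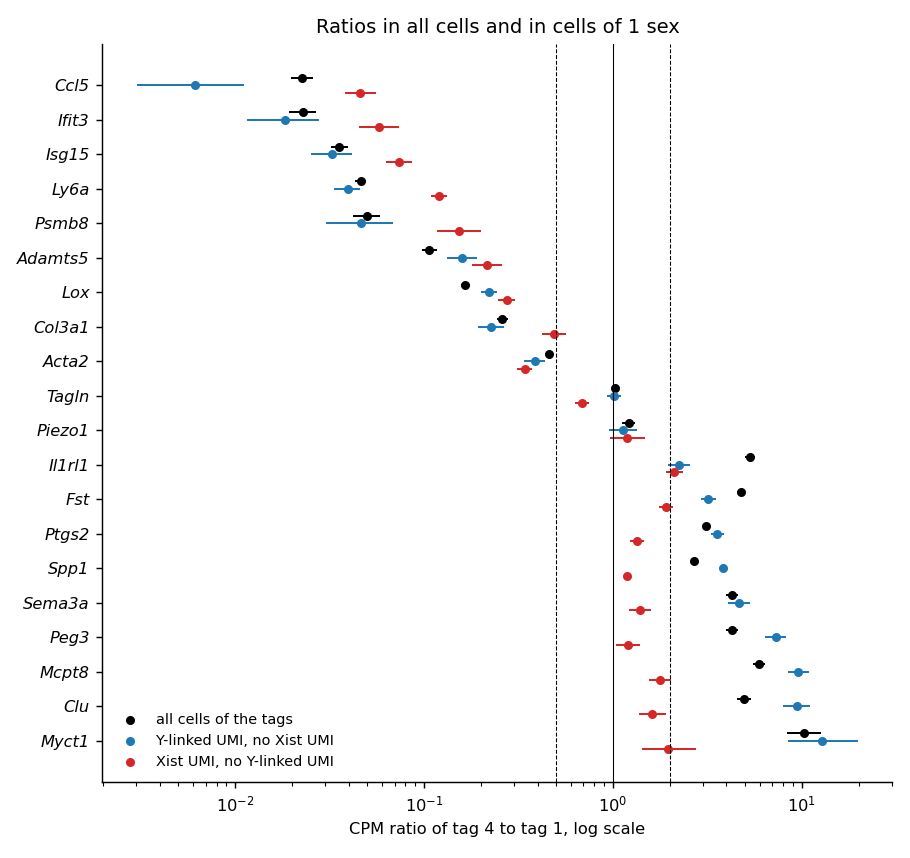
Ratio of tag 4 to tag 1 (log axis) with exact 95% intervals for 20 genes in all cells, in cells with only Y-linked UMIs (211 and 1700) and in cells with only Xist UMIs (1021 and 154), with dashed lines at 0.5 and 2. Ifit3 lies far below the lower line in all 3 (0.0228, 0.0185 and 0.0582), whereas Spp1 lies above the upper line in all cells and Y-linked cells and near 1 in Xist cells (1.2).

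The cells labelled siPiezo1 were set beside the old cells of tag 2. Of the same 6367 genes 23 were at 2 times or more in tag 4 over tag 2 (0.361%) and 11 at 0.5 times or less (0.173%). These were far fewer than in either comparison with young. Cells of tag 2 were few (497) and, like those of tag 4, weakly assigned. Their median own-hashtag count was 76 UMIs, against 15 in cells without a tag. Of them 77 lay within 5 UMIs above the cutoff of 52. The part of weak assignment in the likeness of tags 4 and 2 was not tested. The filter used tags 1 and 4 here too, so genes high mainly in tag 2 could be missing from the low count. Some of the 23 passed the filter only through their level in tag 1 and lay near the floor in both old cultures. Among these were Ifi206 (1.06 CPM in tag 4 and 0 in tag 2), Rsad2 (3.66 and 1.43), and Sp110 and Cfb, whose intervals of 0.615 to 178 and 0.949 to 5.6 times include 1. On the low side were Acta2 at 0.306 (0.29 to 0.322) times, Myl9 (myosin light chain 9) at 0.404 (0.359 to 0.455), Cxcl2 (a neutrophil chemokine) at 0.377 (0.306 to 0.464) and Ankrd1 (a stretch-responsive YAP target) at 0.466 (0.419 to 0.519). Acta2 and Myl9 were higher in tag 2 than in tag 1, whereas Cxcl2 was at 67.1 CPM in tag 1, 32.3 in tag 2 and 12.2 in tag 4. Ankrd1 was at 109 CPM in tag 2, 135 in tag 1 and 50.9 in tag 4. On the high side were Il1rl1 at 2.41 (2.27 to 2.56), Hgf at 2.2 (1.88 to 2.59), Lmo7 at 2.18 (1.91 to 2.5) and Serpina3n at 2.19 (1.87 to 2.59). Serpina3n, an acute-phase protease inhibitor, was at 259 CPM in tag 1 and 69.7 CPM in tag 4, with 31.7 in tag 2 and 106 in tag 3, so that tag 4 lay between the old and young levels. The interferon list had nearly equal sums in tags 4 and 2 (725.7 and 711.6 CPM).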

How the data were processed

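The authors deposited raw UMI counts made with Cell Ranger 4 for 32285 genes and 4 hashtags over 2472397 barcodes of 1 pooled library, without a cell filter (138733332 gene UMIs and 12779836 hashtag UMIs). The genome build they used was not given in the sources used here. Gene positions come from GENCODE vM21 (GRCm38). Cells needed 10% of the UMI total at the 99th percentile among the 10000 deepest barcodes, which is 2218 UMIs. This kept 13045 cells with 115033686 gene UMIs, and no barcode was repeated. UMIs were summed over the cells of a tag and scaled to 1000000 (CPM), and 3 UMIs, taken as the floor, equal 0.1863 CPM in tag 4 and 0.1244 in tag 1. Ratios have exact Clopper-Pearson intervals. Reads from mRNA are counted by 3' end, so levels were not divided by gene length and are compared between tags. Doublets were called with Scrublet (scanpy 1.11.5, expected rate 0.1, 2606 calls, 20.0% of cells) and kept. Droplets with 1 to 100 UMIs (1299325 barcodes) gave the free RNA profile. Python 3.11.15, numpy 2.4.6, scipy 1.17.1 and pandas 2.3.3 were used, and the ratio and its interval were checked on simulated counts. The 2 libraries of the series (gene expression and hashtag) share the same barcodes.

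Genes named were the 20 highest and 20 lowest ratios at a mean of at least 20 CPM, the 4 most extreme members of each of 35 lists, Piezo1, Xist and Y-linked genes, and the contractile list. Any other gene named was chosen after its values were seen. Some genes under this rule are not reported here. The comparison, the members and the lists were chosen with earlier results of these data known. Alternatives were other tag, depth, doublet, mitochondrial, dividing and sex filters, thinning, equal weight per cell, subtraction of free RNA, centring, and other limits on level and fold. No other columns of samples were present (0). The study's arrays, qRT-PCR and imaging were not analysed here.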

Additional observations from a re-analysis of the deposited data

How the results depend on the processing

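The counts of genes past the limit (198 higher and 321 lower) depend mostly on the filter and the fold. They were 400 and 570 at a mean of at least 5 CPM, 101 and 178 at 50 CPM, and 2814 and 4589 with no filter, and they were 541 and 611 at a fold of 1.5 and 70 and 203 at a fold of 3. In cells with Xist and no Y-linked UMI they were 29 and 129. With the own tag at 3 times the next and no doublet calls (408 tag 4 and 2092 tag 1 cells) 316 were higher. These last 2 alternatives were added after seeing the data. All other counts, under the other filters of cells and the other scalings, were within 1.5 times of those reported (172 to 280 higher, 308 to 431 lower), and the Piezo1 ratio was between 1.132 and 1.248 in every alternative that changes it. No sign turned among the counts, the Piezo1 ratio or the genes past the limit that are named. Over 13 alternatives the interferon median log2 ratio ran from -4.04 to -2.32 and that of MHC class I from -2.59 to -1.32. The guidance median ran from -0.03 to 0.88, that of prostaglandin synthesis from 0.18 to 1.07 and that of mitosis from -0.97 to 0.20. Cells with Xist and no Y-linked UMI gave the value nearest 0 for the interferon, MHC class I, guidance and prostaglandin lists. Of 102 named genes past the limit 52 stayed past it in all 14 settings and 35 in 13. Acta2 and Myh10 did so in 11 and Tnfaip3 in 7. Medians of the Xist and Y-linked list were left out, since those genes choose the cells. No paired analysis was possible because each group is 1 culture and the result comes from no test, and no replicate could be left out. Depth limits the genes near 1 CPM in tag 4, such as Phf11b with 9 UMIs, whose ratios have wide intervals.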

Other observations

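Innate defence and acute-phase proteins of the secreted kind held members on both sides of the young level. Of 13 complement and acute-phase genes 2 were at 2 times or more (15.38%, against 3.11% of all genes) and 4 at 0.5 times or less (30.77%, against 5.04%). Clu (clusterin, a chaperone that blocks the complement attack complex) was at 39.7 CPM in tag 1 and 197 CPM in tag 4, with 211 in tag 2 and 25.4 in tag 3, a ratio of 4.96 (95% interval 4.61 to 5.33), and Lcn2 (an iron-binding lipocalin) was at 702 CPM in tag 1 and 1724 CPM in tag 4, with 809.5 in tag 2 and 406 in tag 3, with the cells labelled siPiezo1 the highest of the 4. Cfb, a factor of the alternative pathway, was at 60.3 CPM in tag 1 and 2.67 CPM in tag 4, with 1.25 in tag 2 and 12.9 in tag 3, Serping1 (the C1 inhibitor) at 0.199 times and Hp (haptoglobin) at 0.198 times, and the latter genes were low in the old cells of tag 2 too.

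Positional HOX genes, which keep the site of origin of a vessel in culture, passed the filter in 7 of 26 cases. Of these Hoxa7 and Hoxb7 were at 0.5 times or less (28.57% of the 7, against 5.04% of all genes). Hoxa7 was at 38.8 CPM in tag 1 and 14.3 CPM in tag 4, with 10.4 in tag 2 and 24 in tag 3 (0.368 (95% interval 0.317 to 0.425) times). Hoxb7 was at 37.8 CPM in tag 1 and 13.6 CPM in tag 4, with 18.8 in tag 2 and 43.2 in tag 3 (0.36 (95% interval 0.309 to 0.417) times). Hoxb4 was at 1.33 times. The metallothioneins Mt1 and Mt2, which bind zinc and copper, were at 0.535 and 0.456 times, and Slc7a11, the cystine transporter, at 3.08 (95% interval 2.7 to 3.53) times. Mitochondrially encoded genes had a median log2 ratio of 0.75, with mt-Nd3 at 2.22 and mt-Cytb at 2.1 times, beside a higher median mitochondrial share in tag 4 cells (1.861% against 1.08%). Bone-related genes were sparse, since 3 of the calcification list passed the filter. Bmp2 was at 7.05 and 34 CPM in tags 1 and 4, Runx2 at 1.22 times and Sox9 at 0.536 times.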
